A study of Homo sapiens with 4 samples.

Results

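The enzymes that make, recycle and clear the deoxynucleotides used for DNA synthesis were examined in HepG2, a human liver cancer cell line. The 9 genes RRM1, RRM2, TYMS, TK1, DUT, DTYMK, DCTPP1, DCK and SAMHD1 were taken by gene symbol from the deposited count tables, and all 9 were found among the 24462 genes listed. The 4 libraries came from HepG2 cells treated with DMSO, the solvent control, from cells treated with PD-0332991 (PD0332991, also called palbociclib, an inhibitor of the kinases CDK4 and CDK6), from cells transfected with scrambled siRNA, and from cells transfected with siCDK4 and siCDK6 (CDK4/6 KD). The dose of PD0332991 and the time of harvest are not given in the sources used here. The libraries were made with a QuantSeq kit, which primes at the poly(A) tail and reads the 3′ ends of mRNAs, so that longer genes do not collect more reads. Each condition had 1 library, so the differences could not be checked in replicates and p-values were not computed. Levels are CPM, reads scaled to the size of the library corrected by edgeR's TMM factor. A fold change is a ratio of CPM after adding 0.5 reads, and its interval is a 95% exact binomial (Clopper-Pearson) interval, which covers counting error only and says nothing about how cultures vary. A gene was tested, in the sense of being given a fold change, where either library held at least 10 reads.

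Ribonucleotide reductase turns ribonucleotides into deoxynucleotides and is built from a large subunit, RRM1, and a small subunit, RRM2. Thymidine nucleotides come from de novo synthesis, in which TYMS makes dTMP from dUMP, and from salvage of thymidine by TK1, and DTYMK phosphorylates the dTMP from both routes. DCK starts the salvage of the other deoxynucleosides. DUT removes dUTP and supplies dUMP, DCTPP1 breaks down dCTP and its modified forms, and SAMHD1 breaks down deoxynucleotides in general. RRM2, TK1 and TYMS are known as genes of S phase, induced by E2F factors, which the retinoblastoma protein holds in check until CDK4 and CDK6 phosphorylate it.

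The libraries held 8983848 to 11176880 reads, and 12780 to 13257 genes had at least 10 reads. The 9 genes together took 1212 CPM in DMSO, 917 in scrambled siRNA, 489 in CDK4/6 KD and 291 in PD0332991. CDK4 and CDK6 had fold changes of 0.203 and 0.241 in CDK4/6 KD, in the direction of the labels. All 10 hepatocyte markers had reads in every library, with a summed level between 19264 and 24548 CPM. In CDK4/6 KD 2 of the 10, FGB and ALB, were at least 2-fold higher (fold changes of 2.62 and 2.01), against 9.19% of all genes. None was that much lower there, and none passed 2-fold after PD0332991. Of 19 keratinocyte markers, 4 had at least 10 reads in DMSO, 11 in PD0332991, 10 in scrambled siRNA and 9 in CDK4/6 KD, with summed levels of 211, 239, 374 and 213 CPM. SFN alone held 1221 of the 1926 reads of this list in DMSO, 563 of 2178 in PD0332991, 3266 of 4002 in scrambled siRNA and 1152 of 2415 in CDK4/6 KD. After PD0332991, 8 of the 11 keratinocyte markers tested were at least 2-fold higher, against 7.49% of all genes, and SFN was lower (fold change: 0.463). In scrambled siRNA against DMSO 6 of 10 were that much higher, against 5.3% of all genes. In CDK4/6 KD 3 of 10 were, against 9.19%. KRT5 had 2 reads in DMSO, 113 in PD0332991, 13 in scrambled siRNA and 43 in CDK4/6 KD. KRT14 had 9, 249, 31 and 74 in the same order. The 6 fibroblast markers summed to 48.3 CPM in DMSO, 78.9 in PD0332991, 8.60 in scrambled siRNA and 22.7 in CDK4/6 KD. Of the 6 immune markers, LYZ held nearly all reads, 6780 in DMSO, 4587 in PD0332991, 10932 in scrambled siRNA and 5676 in CDK4/6 KD. Keratinocyte markers at 0 reads numbered 4 in DMSO, 0 in PD0332991, 4 in scrambled siRNA and 2 in CDK4/6 KD. The part of these in the results below was not tested.

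After PD0332991 treatment, all 9 genes were lower than in DMSO, and 8 of them by at least 2-fold, where 7.07% of the 13443 genes tested were that much lower. The exception was SAMHD1. Fold changes ran from 0.0465 for RRM2 to 0.676 for SAMHD1, and the interval lay under 1 for all 9 genes, against 28.6% of all genes. The median log2 fold change was -1.62 over the 9 genes and 0.018 over all genes. Where well counted genes alone were considered, with 500 reads or more as the mean of the compared libraries, 6 of 6 were at least 2-fold lower, against 4.03% of 3774 genes. MKI67, the gene of the proliferation marker Ki67, had a fold change of 0.0757 in the same comparison, and fewer cycling cells and less RNA per cell cannot be told apart in bulk RNA.

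In CDK4/6 KD the picture was narrower. RRM2 and TK1 were at least 2-fold lower than in scrambled siRNA, that is 2 of 9 genes, against 7.62% of 13617 genes. RRM1, with a fold change of 0.501, stood just outside that limit, and TK1, with 0.473, just inside. The interval lay under 1 for 7 genes, against 31.9% of all genes, included 1 for DCK and lay above 1 for SAMHD1. The median log2 fold change was -0.53 over the 9 genes and -0.0036 over all genes. Among well counted genes, 1 of 6 was at least 2-fold lower, against 5.19% of 4415 genes. MKI67 had a fold change of 0.561.

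The control libraries differed from each other beyond counting error at 7 of the 9 genes, RRM2 and DCTPP1 being the others. All 9 genes had a lower level in scrambled siRNA than in DMSO, and the interval lay under 1 for 7 of them, against 28% of the 13303 genes tested. DCK and SAMHD1, the least counted members, were at least 2-fold lower, where 6.64% of all genes were. None of the 7 well counted members was, against 1.76% of 4155 genes. The median log2 fold change was -0.84 over the 9 genes and 0.0088 over all genes. MKI67 was also lower (fold change: 0.681). The labels give nothing that separates transfection from other differences between these cultures, so the choice of control is given beside each of the 9 genes.

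**Figure D1:**
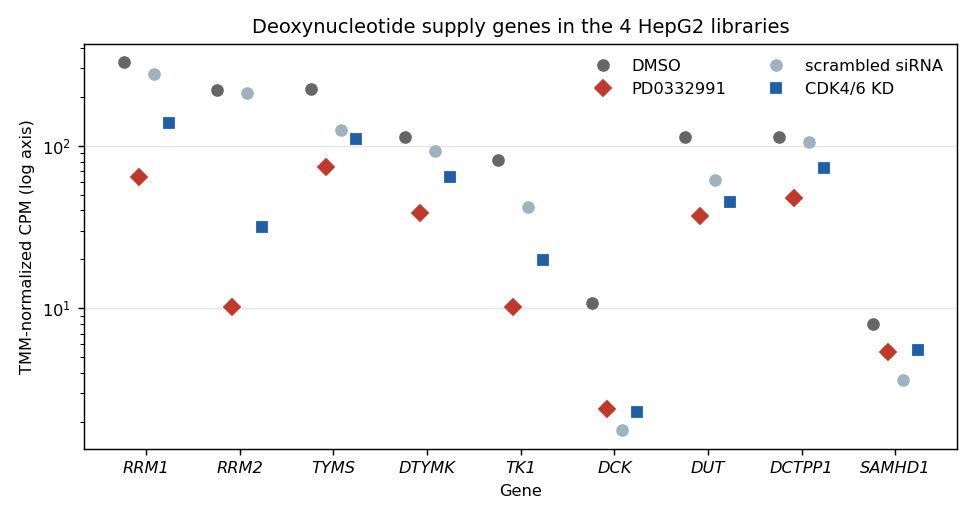
Expression of the 9 genes in the 4 HepG2 libraries, as TMM-normalized CPM on a log axis, with 1 point per library. Of the 9 genes, 7 had their lowest level in PD0332991, RRM2 at 10.2 CPM against 220.5 in DMSO, while DCK and SAMHD1 were lowest in scrambled siRNA.

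Promoter sequences are shown for 3 genes that were lower after PD0332991, RRM2, TK1 and TYMS, and for SAMHD1, the gene that was lowered least. Each is the 150 bases before a RefSeq start site, on the strand of the gene, from GRCh38.p14. Where a gene had more than 1 start site, the one with the most matches to the searched letters was printed. The stretches were thus chosen for their matches. The count tables were made on hg19, so the sequences were matched by gene symbol and not by position. Capitals mark the letters CCAAT (or ATTGG on the other strand), the box bound by NF-Y, and the E2F letters TTTCCCGC, TTTCGCGC, TTTGCCGC or TTTGGCGC on either strand.
RRM2, chr2:10122589-10122738, plus strand: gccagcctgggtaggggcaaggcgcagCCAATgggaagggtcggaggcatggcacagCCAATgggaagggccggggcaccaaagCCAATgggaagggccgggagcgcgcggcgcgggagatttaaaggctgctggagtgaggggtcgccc
TK1, chr17:78187053-78187202, minus strand: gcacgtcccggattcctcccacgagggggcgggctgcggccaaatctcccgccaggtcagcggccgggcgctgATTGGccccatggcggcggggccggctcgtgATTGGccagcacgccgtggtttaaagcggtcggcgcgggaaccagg
TYMS, chr18:657503-657652, plus strand: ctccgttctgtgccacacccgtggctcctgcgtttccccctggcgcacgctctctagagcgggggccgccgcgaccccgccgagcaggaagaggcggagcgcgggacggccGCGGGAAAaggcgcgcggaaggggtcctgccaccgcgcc
SAMHD1, chr20:36951709-36951858, minus strand: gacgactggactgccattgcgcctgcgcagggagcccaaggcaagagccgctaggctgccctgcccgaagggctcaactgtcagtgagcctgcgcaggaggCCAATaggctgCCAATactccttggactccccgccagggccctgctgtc
The RRM2 stretch holds CCAAT 3 times, at -123 to -119, -93 to -89 and -66 to -62 from the start, TK1 holds it in 2 places as ATTGG, and SAMHD1 also holds it in 2 places. The RRM2 start is the second of those in the table, and the first has CCAAT at -249 to -245 only, outside a stretch of 150 bases. TK1 also has a second start, with 0 matches. TYMS holds GCGGGAAA, which reads TTTCCCGC on the other strand.

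In the 250 bases before any listed start site, CCAAT was found in 5 of the 9 genes (RRM1, RRM2, DTYMK, TK1 and SAMHD1), and in 37% of the 27305 genes with a promoter in the table. The E2F letters were found in TYMS and DUT, 2 of 9, and in 3.40% of all genes. Exact letters alone were searched, so a gene without a match may still hold a site that differs from them. The letters TTTGAA, searched on both strands as the core of the CHR element of G2 and M phase genes, were found in RRM1 and DUT, 2 of 9, and in 16% of all genes. No match overlapped another. DUT has 4 start sites in the table and its E2F letters stand before the last of them, and a gene with more start sites has more chances of a match. DCK and DCTPP1 held none of these letters in this window. The genes with CCAAT included both the most lowered gene after PD0332991, RRM2, and the least lowered, SAMHD1.

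The subunits of ribonucleotide reductase differed in how far they were lowered. RRM2, the small subunit, had 2015 reads in DMSO, 93 in PD0332991, 2244 in scrambled siRNA and 359 in CDK4/6 KD, which is 220.5, 10.2, 209.7 and 31.7 CPM. Both control libraries stood close together and both inhibited libraries far below them. The fold change was 0.0465 after PD0332991 (interval 0.0372 to 0.0570) and 0.151 in CDK4/6 KD (interval 0.135 to 0.169), and 0.951 between the controls (interval 0.895 to 1.01). RRM2 was thus the member with the lowest fold change in both comparisons and the closest controls. With the controls exchanged it kept its place, with fold changes of 0.0489 for PD0332991 against scrambled siRNA and 0.144 for CDK4/6 KD against DMSO. GENCODE 29 lists 3 processed pseudogenes of RRM2, which the count tables do not list by those names, and their share of its reads was not tested. AC007240.1, on the same strand, covers the 3′ end of RRM2 in GENCODE 29 and is not among the genes counted.

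RRM1, the large subunit that carries the catalytic site, had 2977 reads in DMSO, 587 in PD0332991, 2938 in scrambled siRNA and 1558 in CDK4/6 KD, or 326, 64.5, 275 and 138 CPM. It was the most counted of the 9 genes in 3 libraries, and second to TYMS in PD0332991. Its fold change was 0.198 after PD0332991 (interval 0.181 to 0.216) and 0.501 in CDK4/6 KD (interval 0.471 to 0.533), so that it was lowered in both, but less than RRM2. With the controls exchanged the values were 0.235 for PD0332991 and 0.423 for CDK4/6 KD, the latter past 2-fold. RRM2B, the small subunit that p53 induces, is no member of the 9 but takes the place of RRM2 in non-cycling cells. It had 237 reads in DMSO, 230 in PD0332991, 216 in scrambled siRNA and 412 in CDK4/6 KD. After PD0332991 its fold change was 0.974 (interval 0.809 to 1.17). In CDK4/6 KD it was higher (fold change: 1.80, interval 1.53 to 2.14), or 1.40 against DMSO (interval 1.19 to 1.65).

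Ratios of reads between genes within a library do not depend on library size. They compare reads and not molecules, since the 3′ ends of genes may be caught with unequal yield. The ratio of RRM2 to RRM1 reads was 0.677 in DMSO and 0.764 in scrambled siRNA, but 0.158 in PD0332991 and 0.230 in CDK4/6 KD. This ratio changed 0.234-fold after PD0332991 (interval 0.185 to 0.294) and 0.302-fold in CDK4/6 KD (interval 0.265 to 0.343). RRM2 gave 8.50 reads per read of RRM2B in DMSO and 10.4 in scrambled siRNA, and 0.404 and 0.871 in PD0332991 and CDK4/6 KD. RRM2 reads thus outnumbered RRM2B reads in both control libraries and fell short of them in both inhibited libraries. The change was 0.0477-fold after PD0332991 (interval 0.0357 to 0.0632) and 0.0840-fold in CDK4/6 KD (interval 0.0684 to 0.103).

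**Figure D2:**
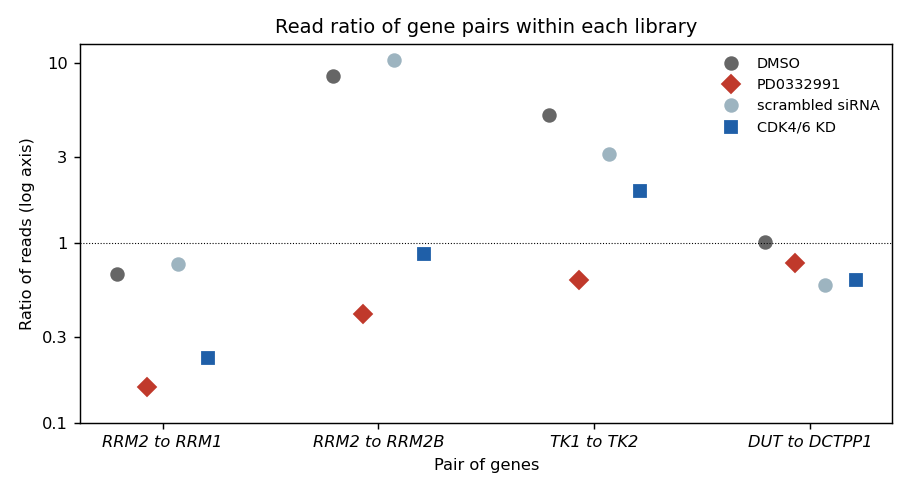
Ratio of reads of 4 gene pairs within each library, on a log axis, with 1 point per library and a dotted line at 1. RRM2 to RRM2B stood at 8.50 and 10.4 in the control libraries and at 0.404 and 0.871 in PD0332991 and CDK4/6 KD. DUT to DCTPP1 ran from 0.585 in scrambled siRNA to 1.01 in DMSO.

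TYMS, the thymidylate synthase that fluorouracil inhibits, had 2054 reads in DMSO, 677 in PD0332991, 1343 in scrambled siRNA and 1242 in CDK4/6 KD, or 225, 74.4, 126 and 110 CPM. The siRNA libraries were close to each other, and both lay between DMSO and PD0332991. The fold change was 0.331 after PD0332991 (interval 0.303 to 0.361) and 0.874 in CDK4/6 KD (interval 0.809 to 0.945). Against DMSO, the CDK4/6 KD value was 0.488, since the controls themselves differed in TYMS (0.558 for scrambled siRNA against DMSO). Against scrambled siRNA, the PD0332991 value was 0.593. ENOSF1, a gene on the other strand, covers the 3′ end of TYMS in GENCODE 29, and whether the counting used strand is not given in the sources used here. ENOSF1 had 303, 216, 415 and 310 reads in DMSO, PD0332991, scrambled siRNA and CDK4/6 KD. TYMSOS, also on the other strand, overlaps TYMS without covering its 3′ end and had 1024, 865, 696 and 1676 reads in the same order. The fold change of TYMSOS was 0.848 after PD0332991 and 2.28 in CDK4/6 KD, and its part in the TYMS reads was not tested. TYMS gave 3.13 to 6.78 reads per read of ENOSF1, which had fold changes of 0.716 after PD0332991 and 0.706 in CDK4/6 KD.

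DTYMK, the thymidylate kinase, had 1041 reads in DMSO, 351 in PD0332991, 995 in scrambled siRNA and 727 in CDK4/6 KD, or 114, 38.6, 93.0 and 64.2 CPM. Here the controls lay nearer to each other than for TYMS (fold change: 0.816). Exchanging them gave 0.415 for PD0332991 and 0.564 for CDK4/6 KD. With their own controls the fold changes were 0.339 after PD0332991 (interval 0.299 to 0.382) and 0.691 in CDK4/6 KD (interval 0.627 to 0.761). The ratio of TYMS to DTYMK reads was 1.97 in DMSO, 1.93 in PD0332991, 1.35 in scrambled siRNA and 1.71 in CDK4/6 KD. The interval of its change included 1 after PD0332991 (change: 0.978, interval 0.840 to 1.14). It left out 1 between the controls (change: 0.684, interval 0.61 to 0.77) and in CDK4/6 KD (change: 1.27, interval 1.12 to 1.43).

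TK1, the cytosolic thymidine kinase of S phase, had 747 reads in DMSO, 93 in PD0332991, 450 in scrambled siRNA and 225 in CDK4/6 KD, or 81.8, 10.2, 42.1 and 19.9 CPM. Each step in that order was downward from DMSO through scrambled siRNA and CDK4/6 KD to PD0332991, and the interval of each step left out 1. The fold change was 0.125 after PD0332991 (interval 0.0996 to 0.155), 0.473 in CDK4/6 KD (interval 0.401 to 0.556) and 0.515 between the controls. TK1 thus differed between the control libraries by a factor similar to that between CDK4/6 KD and its own control. Against DMSO, CDK4/6 KD had a TK1 fold change of 0.244, and against scrambled siRNA PD0332991 had the same value, 0.244.

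TK2, the mitochondrial thymidine kinase, which is not tied to S phase, had 144 reads in DMSO, 150 in PD0332991, 144 in scrambled siRNA and 115 in CDK4/6 KD. Its fold change was 1.05 after PD0332991 (interval 0.826 to 1.32) and 0.756 in CDK4/6 KD (interval 0.586 to 0.971). TK1 gave 5.19 reads per read of TK2 in DMSO, 3.13 in scrambled siRNA, 1.96 in CDK4/6 KD and 0.620 in PD0332991. DGUOK, the mitochondrial deoxyguanosine kinase, was higher after PD0332991 (fold change: 1.47, interval 1.37 to 1.57), with an interval that included 1 in CDK4/6 KD (fold change: 1.04, interval 0.983 to 1.11). The level of DGUOK in scrambled siRNA was also above that in DMSO (fold change: 1.33), and its PD0332991 fold change against scrambled siRNA was 1.10.

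DCK, the deoxycytidine kinase that activates gemcitabine and cytarabine, was counted least but for SAMHD1 in DMSO and least of all in the other libraries. It had 99 reads in DMSO, 22 in PD0332991, 19 in scrambled siRNA and 26 in CDK4/6 KD, or 10.8, 2.42, 1.78 and 2.30 CPM. DMSO stood apart, and the intervals between the other 3 libraries all included 1. DCK was thus lower after PD0332991 than in DMSO (fold change: 0.227, interval 0.134 to 0.357), but its value against scrambled siRNA was 1.35 (interval 0.703 to 2.66). In CDK4/6 KD the fold change was 1.29 (interval 0.689 to 2.47), or 0.216 against DMSO. MOB1B, which overlaps DCK on the same strand in GENCODE 29, had 41, 52, 36 and 59 reads in DMSO, PD0332991, scrambled siRNA and CDK4/6 KD.

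DUT, the dUTPase, had 1041 reads in DMSO, 338 in PD0332991, 660 in scrambled siRNA and 513 in CDK4/6 KD, or 114, 37.1, 61.7 and 45.3 CPM. Its pattern was that of TYMS, with the siRNA libraries between DMSO and PD0332991. The fold change was 0.326 after PD0332991 (interval 0.287 to 0.369), 0.735 in CDK4/6 KD (interval 0.653 to 0.826) and 0.542 between the controls. With the controls exchanged DUT stood at 0.602 for PD0332991 and 0.398 for CDK4/6 KD. DUT makes a nuclear and a mitochondrial form from different starts, which reads at the 3′ end cannot separate, and 8 processed pseudogenes carry its name in GENCODE 29.

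DCTPP1, the dCTP pyrophosphatase, had 1030 reads in DMSO, 435 in PD0332991, 1129 in scrambled siRNA and 827 in CDK4/6 KD, or 113, 47.8, 106 and 73.1 CPM. The control libraries did not differ beyond counting error (fold change: 0.936, interval 0.859 to 1.02), and exchanging them gave 0.453 for PD0332991 and 0.648 for CDK4/6 KD. It was lower after PD0332991, at 0.424 of the DMSO level (interval 0.378 to 0.475), and in CDK4/6 KD, at 0.693 of its control (interval 0.632 to 0.758). RRM2 and DCTPP1 were the members whose interval between the controls included 1. The ratio of DUT to DCTPP1 reads was 1.01 in DMSO, 0.777 in PD0332991, 0.585 in scrambled siRNA and 0.620 in CDK4/6 KD. This ratio changed 0.58-fold between the controls (interval 0.507 to 0.659) and 0.769-fold after PD0332991 (interval 0.649 to 0.911). In CDK4/6 KD the interval of its change included 1 (change: 1.06, interval 0.914 to 1.23).

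SAMHD1, the triphosphohydrolase that empties the deoxynucleotide pool in resting cells, had 73 reads in DMSO, 49 in PD0332991, 39 in scrambled siRNA and 63 in CDK4/6 KD, or 7.99, 5.38, 3.65 and 5.57 CPM. It had the smallest difference of the 9 genes after PD0332991, with a fold change of 0.676 (interval 0.459 to 0.981). The highest fold change in CDK4/6 KD was also that of SAMHD1 (1.52, interval 1.01 to 2.34). Both directions turned with the control, to 1.47 for PD0332991 against scrambled siRNA (interval 0.950 to 2.31) and 0.699 for CDK4/6 KD against DMSO (interval 0.489 to 0.990). PD0332991 and CDK4/6 KD did not differ beyond counting error (fold change: 0.967, interval 0.652 to 1.43). TLDC2, on the other strand, covers the 3′ end of SAMHD1 in GENCODE 29 and had 33, 61, 86 and 26 reads in DMSO, PD0332991, scrambled siRNA and CDK4/6 KD, with its highest count where SAMHD1 had its lowest. ZNF771 covers the 3′ end of DCTPP1 in the same way and had 96 to 125 reads.

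**Figure D3:**
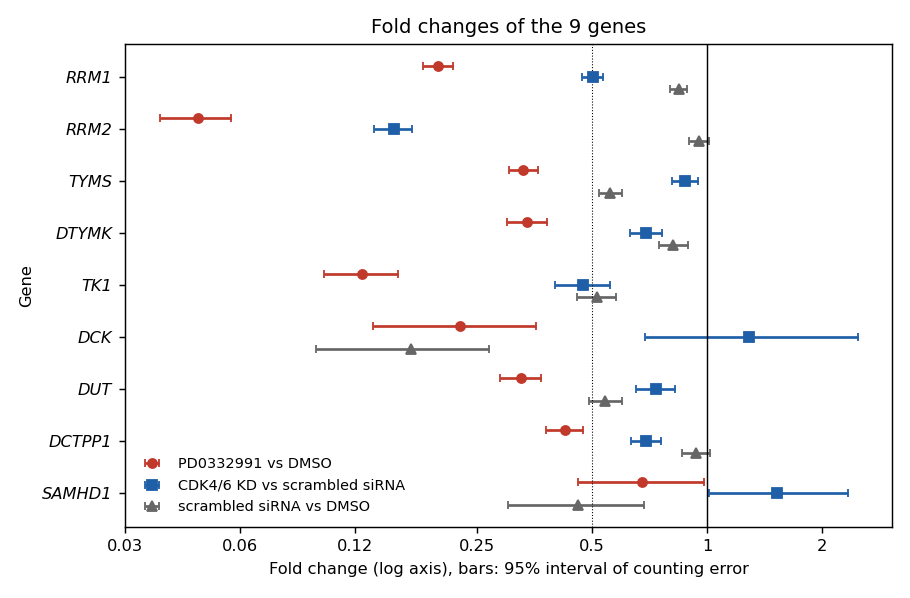
Fold changes of the 9 genes on a log axis, with bars for the 95% interval of counting error, a solid line at 1 and a dotted line at 0.5. RRM2 stood at 0.0465 after PD0332991, 0.151 in CDK4/6 KD and 0.951 between the controls, while TYMS, TK1, DCK, DUT and SAMHD1 lay between 0.168 and 0.558 in scrambled siRNA against DMSO.

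Set beside each other, the members were lowered more after PD0332991 than in CDK4/6 KD. The PD0332991 fold change was at most 0.5 times the CDK4/6 KD fold change for 8 of the 9 genes, against 11.6% of the 13099 genes tested in both. DCTPP1 was the exception, with a ratio of the fold changes of 0.612 (interval 0.529 to 0.708). For RRM2 the ratio was 0.306 (interval 0.239 to 0.389) and for TK1 0.265 (interval 0.200 to 0.348). These ratios carry the difference between the control libraries. Compared directly, without a control, RRM2 and RRM1 were at least 2-fold lower in PD0332991 than in CDK4/6 KD (fold changes of 0.323 and 0.469), that is 2 of 9 genes, against 6.65% of 13683 genes. The interval lay under 1 for 7 genes, against 29.4% of all genes, and included 1 for DCK and SAMHD1. The 2 libraries also differ in that 1 had been transfected.

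**Figure D4:**
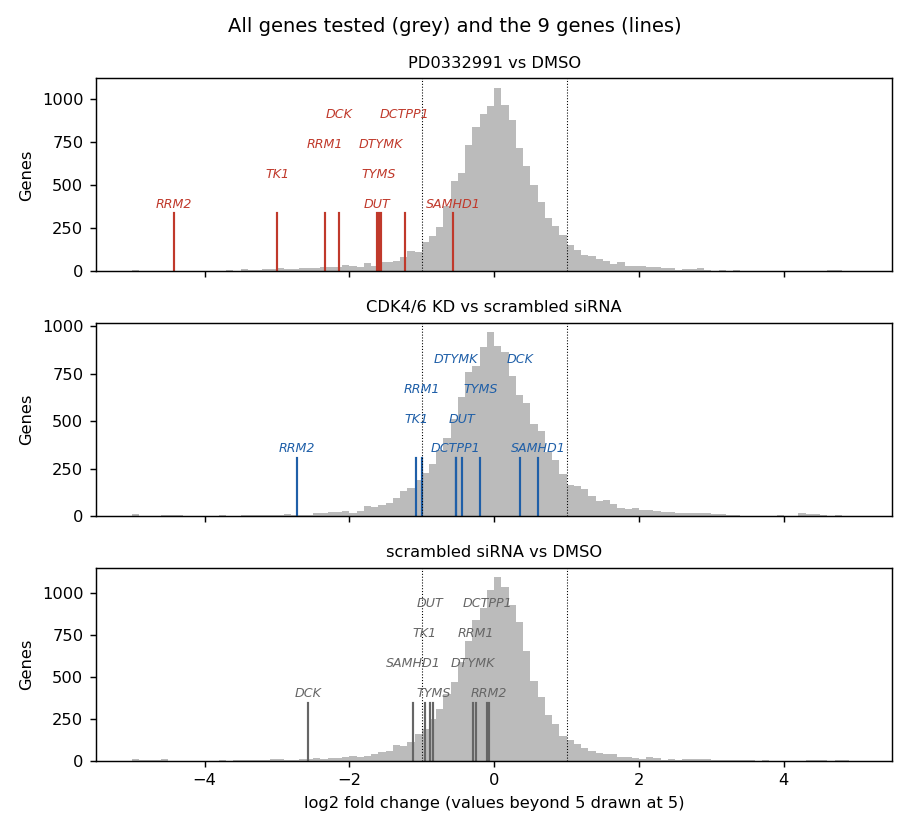
Number of genes by log2 fold change in bins of 0.1, in grey for all genes tested, with a line for each of the 9 genes and dotted lines at -1 and 1. After PD0332991 8 of the 9 lines lie left of -1, in CDK4/6 KD 2 do, and between the control libraries 2 do.

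The other enzymes of nucleotide supply were counted from lists of the pathway. Over all genes, 7.07% were at least 2-fold lower and 7.49% higher after PD0332991, and 7.62% and 9.19% in CDK4/6 KD, so that 1 gene of 13 is at the background. Of 5 genes of the thymidylate cycle, which returns the folate that TYMS uses, 2 were at least 2-fold lower after PD0332991 and 1 was higher. MTHFD1, which makes the folate forms for thymidylate and purines, was lower in both, with fold changes of 0.435 and 0.415. SHMT2, the mitochondrial serine hydroxymethyltransferase, was higher after PD0332991 (fold change: 2.20, interval 2.07 to 2.34), with a fold change of 1.21 in CDK4/6 KD and 1.49 between the controls.

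De novo purine synthesis had 2 of 13 genes at least 2-fold lower after PD0332991, GMPS and PRPS2 (fold changes of 0.414 and 0.299), and 1 of 13 in CDK4/6 KD, PPAT, which catalyses the committed step (fold change: 0.480). The median log2 fold change of this list was -0.62 and -0.57, against 0.018 and -0.0036 over all genes. The interval lay under 1 for 8 of the 13 genes after PD0332991, against 28.6% of all genes. In CDK4/6 KD it did for 11, against 31.9%. De novo pyrimidine synthesis had none of 5 genes past 2-fold in either comparison, with medians of -0.26 and -0.58. CAD, which starts that pathway, had 434 reads in PD0332991 and 348 in DMSO (fold change: 1.25, interval 1.08 to 1.45). Its fold change in CDK4/6 KD was 0.570 (interval 0.488 to 0.665). UPP1 and HPRT1, of 7 genes of ribonucleoside and base salvage, had CDK4/6 KD fold changes of 0.310 and 0.492, and no gene of that list was past 2-fold after PD0332991. UPP1, uridine phosphorylase, had 55 reads in DMSO, 60 in PD0332991, 160 in scrambled siRNA and 52 in CDK4/6 KD, with the scrambled siRNA library far above the other 3.

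Among 12 genes of deoxynucleotide breakdown and pool cleaning, 3 were at least 2-fold lower and 2 higher after PD0332991, and 2 lower and 1 higher in CDK4/6 KD, with medians of -0.032 and -0.099. PNP, purine nucleoside phosphorylase, was lower in both (fold changes of 0.395 and 0.385). CDA, cytidine deaminase, had 18 reads in DMSO, 85 in PD0332991, 88 in scrambled siRNA and 21 in CDK4/6 KD. The PD0332991 and scrambled siRNA libraries stood together, so that its fold changes had opposite directions, 4.65 after PD0332991 and 0.230 in CDK4/6 KD. The nucleotide kinases, the mitochondrial salvage genes with their carriers, and the partners of ribonucleotide reductase together held 1 gene past 2-fold after PD0332991, CMPK2 with 2 reads in PD0332991 against 10 in DMSO (fold change: 0.235, interval 0.0214 to 0.942), and none in CDK4/6 KD.

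The users of deoxynucleotides, 18 genes of the replicative polymerases and the clamp loader, had a median log2 fold change of -1.78 after PD0332991, with 14 genes at least 2-fold lower and 1 higher, and -0.85 in CDK4/6 KD, with 6 lower. The higher gene was POLD4, at 2.99 after PD0332991, which stood at 2.87 between the controls and at 1.00 in CDK4/6 KD. POLA2, PCNA and RFC3 were lower after PD0332991 (fold changes of 0.106, 0.182 and 0.180), and POLE3, POLD3 and POLA1 had CDK4/6 KD fold changes of 0.278, 0.383 and 0.499. Of 7 genes that regulate the 9 enzymes, 6 were at least 2-fold lower after PD0332991 and 3 in CDK4/6 KD. E2F1, which drives transcription of several of them, had fold changes of 0.117 and 0.450, and CDK1, one of the kinases that phosphorylate SAMHD1, 0.0825 and 0.316. CCNF, the cyclin F that marks RRM2 for degradation, had fold changes of 0.163 and 0.441. CCNA2, the cyclin A of S phase, had 0.163 after PD0332991 and 0.579 in CDK4/6 KD, short of 2-fold. FZR1, the regulator not past 2-fold after PD0332991, had 0.799 (interval 0.612 to 1.04) and 1.53 (interval 1.18 to 1.99). Between the controls the interval lay under 1 for 6 of the 7 regulators, E2F1 (0.917) being the other. It lay under 1 for 10 of the 18 polymerase and clamp loader genes and above 1 for 2. Over all genes, 28% had an interval under 1 there.

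**Figure D5:**
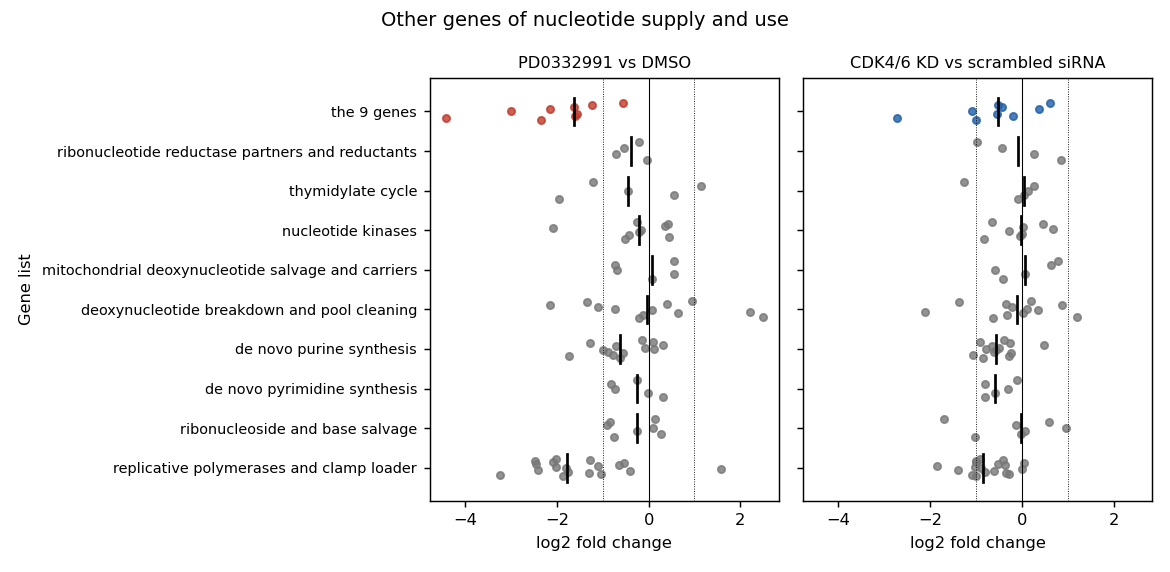
log2 fold changes of the 9 genes and of 9 further lists of nucleotide supply and use, with 1 point per gene tested and a black bar at each median. The median of the 9 genes was -1.62 after PD0332991 and -0.53 in CDK4/6 KD, and that of the replicative polymerases and clamp loader -1.78 and -0.85.

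The genes whose pattern over the 4 libraries was most like that of RRM2 were sought among 9229 genes averaging 100 reads or more, by the Euclidean distance between log2 CPM values centred on each gene's mean. The nearest 5 were CDCA3, MCM10, SPC25, DTL and CLSPN, at distances of 0.845, 0.937, 1.06, 1.08 and 1.10. CDCA3 had 70.7 CPM in DMSO, 5.38 in PD0332991, 53.0 in scrambled siRNA and 14.7 in CDK4/6 KD, so that its range was narrower than that of RRM2. So was that of CLSPN, at 165, 12.9, 116 and 44.7 CPM. The range of SPC25 was wider, at 32.3, 1.32, 26.8 and 9.98 CPM, with 12 reads in PD0332991. For SAMHD1 the nearest were NUDCD1, ZC3H7B, RUNX1, CCAR2 and NT5DC2, at distances from 0.0696 to 0.130. With 4 points per gene and 56 reads on average for SAMHD1, such likeness is a description of these libraries.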

How the data were processed

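Total RNA of 4 HepG2 cultures was sequenced by the authors with QuantSeq 3′ mRNA libraries, read from 1 end. The deposited values are raw read counts per gene symbol, not normalized, with libraries kept separate. The submitters' processing notes name Bowtie2, edgeR and hg19 without versions, and the counter, the annotation and the use of strand are not given in the sources used here. Groups came from the sample titles. Each file listed 25737 entries, and counts of 286 repeated symbols, none of them a member, were summed to 24462 genes. TMM factors (edgeR 4.0.16, R 4.3.3) ran from 0.957 to 1.03. To each count 0.5 reads, scaled to the library, were added before fold changes were taken. Exact intervals came from scipy 1.17.1, with the conditional odds ratio for ratios of reads and of fold changes. Intervals cover counting error only, because each condition had 1 library. PCR copies were not marked, so reads may not be independent and the intervals may be too narrow. The quasi-likelihood test of edgeR needs replicates and could not be fitted. Procedures were tested on simulated data. List genes are named where at least 2-fold changed with 50 reads in the higher library, up to 3 genes a list ranked by the interval end nearest to 1. CMPK2, CAD, POLD4 and the genes that overlap members were named after their values were seen. Some list genes that this rule names are not reported here. The members and lists were chosen with earlier results of these data known. Promoters came from RefSeq and overlaps and pseudogenes from GENCODE 29, both matched by symbol. All 9 members matched in each. Alternatives were DESeq2 size factors (DESeq2 1.42.0), total counts, quantile normalization (limma 3.58.1), a pseudocount of 5, no filter or a filter of 50 reads, the most counted entry of repeated symbols, other thresholds and the control of the other arm.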

Additional observations from a re-analysis of the deposited data

Results flagged for a closer look

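DCK and SAMHD1 had fold changes on opposite sides of 1 in the comparisons of PD0332991 and CDK4/6 KD, each with its own control. DCK had a fold change of 0.227 after PD0332991 and 1.29 in CDK4/6 KD, where the interval of 0.689 to 2.47 included 1, so that no upward change of DCK is shown. SAMHD1 had 0.676 and 1.52, with intervals of 0.459 to 0.981 and 1.01 to 2.34. The ratio of the PD0332991 to the CDK4/6 KD fold change was 0.175 for DCK (interval 0.076 to 0.390). For SAMHD1 the ratio was 0.443 (interval 0.248 to 0.783). These ratios carry the difference between the control libraries, and their intervals cover counting error only. The difference was not tested across cultures, since each arm has 1 library per condition. Both genes rest on under 100 reads in every library, and both had their lowest level in scrambled siRNA, the control of the CDK4/6 KD arm, and their highest in DMSO.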

How the results depend on the processing

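The control library moved the results most. With the control of the other arm, 5 members in place of 8 were at least 2-fold lower after PD0332991 (median log2 fold change -1.14). Of all genes tested so, 1107 of 13552 were that much lower. In CDK4/6 KD 6 members in place of 2 were (median -1.24), against 1103 of 13512 genes. DCK and SAMHD1 stood at 1.35 and 1.47 after PD0332991, with intervals that included 1. In CDK4/6 KD, DCK moved from 1.29 to 0.216 (interval 0.132 to 0.329) and SAMHD1 to 0.699. With total counts alone 1 member was at least 2-fold lower in CDK4/6 KD, against 846 of 13617 genes. This scaling also moved the median of all genes to 0.10 in that comparison, and RRM1 moved to 0.539. Where the whole interval had to lie under 0.5, 1 member was left in CDK4/6 KD and 1 between the controls. At 1.5-fold, 5 members were lower between the controls. The share of all genes was not computed for the whole-interval and 1.5-fold limits, so these counts have no background beside them. DESeq2 size factors, quantile normalization, the other pseudocount, filters and the treatment of repeated symbols left each member's fold change within its counting interval in all 3 comparisons, except that DCK in CDK4/6 KD was dropped by the filter of 50 reads. No paired analysis was possible because each condition has 1 library. Depth limits DCK and SAMHD1 most, at 41.5 and 56 reads on average.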
